A study of Mus musculus with 20 samples.

Results

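Tamoxifen was compared with no tamoxifen after 1 day in mouse embryonic stem (ES) cells that carry an inducible Zscan4, and each difference was placed against the cells at the start of the culture. The comparison used 4 of the 20 arrays of the series, the 2 titled Day1 Tmx+ and the 2 titled Day1 Tmx-, and was chosen by those titles. The 2 Day0 arrays served as the starting point, and the 2 arrays each of Day2 Tmx++ and Day2 Tmx-- as a later comparison that shared no array with day 1. All groups were the cells labelled ES_ZERT #18, a single clone of V6.5 ES cells (an F1 hybrid of C57BL/6 and 129/Sv) with a pCAG-Zscan4-ERT2 construct, co-transfected with a neomycin-resistance vector. The ubiquitous CAG promoter drove the fusion in every group, controls included. Treated wells held ES medium with 200 nM tamoxifen and untreated wells held ES medium alone, both as a monolayer on gelatin. An effect of tamoxifen itself, of the activated fusion and of the single clone cannot be told apart in these groups.

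Zscan4 genes encode nuclear proteins with a SCAN domain and zinc fingers found in the early mouse embryo and in a small, changing minority of ES cells in culture. Their bursts of expression in ES cells are known to accompany telomere lengthening and the transient transcription of other early embryonic genes. ERT2 is a mutated ligand-binding domain of the oestrogen receptor that keeps a fused protein out of the nucleus until tamoxifen or its active metabolite binds. Day 1 therefore samples the first response to the switch, before the longer exposures of the study.

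RNA from each well was labelled green and hybridised beside a red common reference, a pool of mouse cell line RNA mixed with 129ES cell RNA, so a level here is a log2 ratio of sample over reference at 1 probe. The sample channel stood well above background at 26199 to 30069 of 42006 probes per array, and the 29414 probes that did so on both arrays of at least 1 group were tested. The files identify probes by number and sequence, without gene names, so the ES cell, primitive endoderm, trophectoderm and feeder markers could not be checked and no gene list was applied. The levels of the 2 Day1 Tmx- arrays differed more from each other (SD of the difference 0.18 over probes) than those of any other group (0.0909 to 0.125). Day0 and Day1 Tmx- lay on slide 1 and Day1 Tmx+ and Day2 Tmx-- on slide 2, so the day 1 comparison spans slides, and slide and treatment cannot be told apart within it. Separate cultures are not named for the arrays within a group, so the p-values rest on a spread between arrays that may be technical.

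The sequences of the 12 probes with the largest changes are shown because they are the only identity the files give these transcripts. Each probe is 60 bases long, written 5′ to 3′. A probe holding a polyadenylation hexamer is shown as the 30 bases around it, with the hexamer in capitals, and other probes are shown whole. The first 6 were higher and the last 6 lower with tamoxifen.
Z00037943-1: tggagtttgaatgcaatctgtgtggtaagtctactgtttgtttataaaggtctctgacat
Z00024009-1: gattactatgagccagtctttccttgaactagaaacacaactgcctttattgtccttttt
Z00035453-1: agtaattttaataaattgaAATAAAcaatt
Z00074633-1: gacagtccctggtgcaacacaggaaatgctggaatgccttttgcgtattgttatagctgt
Z00074737-1: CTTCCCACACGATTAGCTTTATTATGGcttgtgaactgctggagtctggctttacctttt
Z00023510-1: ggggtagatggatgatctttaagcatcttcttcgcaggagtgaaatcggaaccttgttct
Z00010943-1: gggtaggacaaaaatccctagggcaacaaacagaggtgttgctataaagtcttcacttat
Z00046636-1: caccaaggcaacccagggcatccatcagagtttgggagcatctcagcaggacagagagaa
Z00028998-1: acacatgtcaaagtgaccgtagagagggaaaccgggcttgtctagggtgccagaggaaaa
Z00075588-1: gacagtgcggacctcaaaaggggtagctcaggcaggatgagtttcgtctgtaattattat
Z00041077-1: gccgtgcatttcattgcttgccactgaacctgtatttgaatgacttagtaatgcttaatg
Z00064530-1: tctaggcattccAATAAAagccaacccaat
In Z00074737-1 the capitals mark a stretch shared with another probe, described below with its partner.

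After 1 day, the treated cells differed from the untreated cells at many probes by small amounts and at few probes by 2-fold or more. By limma's moderated test at a Benjamini-Hochberg adjusted p under 0.05, 5508 probes differed (18.7% of those tested), of which 2746 were higher with tamoxifen (9.34%) and 2762 lower (9.39%). This count rested on single arrays: it was 2986 without the second and 3685 without the first Day1 Tmx+ array, 3367 without the second and 8507 without the first Day1 Tmx- array, and 1800 with only the 4 arrays fitted. The fall was the larger side among strong changes: 57 probes were at least 2-fold higher (0.194%) and 81 at least 2-fold lower (0.275%), 4 against 13 were at least 3-fold, and 0 against 3 at least 4-fold. Over all tested probes the central 95% of differences ran from -0.44 to 0.40 on the log2 scale, with a median of 0.0044. The 2 treated arrays lay entirely above or below the 2 untreated arrays at 2739 of the 2746 higher calls and at 2756 of the 2762 lower calls, and at 15630 of all probes tested (53.1%). The 138 probes past 2-fold kept their direction, and at least 135 of them their call, in each of 17 other settings with values for 137 or 138 of them. With all local backgrounds left as scanned, 137 kept their direction and 116 their call. That setting differs only in 12 extreme background values of the first Day1 Tmx- array. They enter the background correction of the whole array.

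The largest fall was at Z00010943-1, and there the groups moved in opposite directions from day 0. Its level was 0.80 and 0.87 on the Day0 arrays, 2.20 and 2.48 in untreated cells and -0.62 and -0.55 in treated cells. The treated arrays were thus the lowest and the untreated arrays the highest of the 6. The difference was -2.92 ± 0.14 (log2, SE), a 7.58-fold fall with limma's adjusted p of 1.72e-10. On day 2 the untreated arrays read 1.57 and 1.01 and the treated arrays -2.35 and -2.38, still farther apart.

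Z00046636-1 was at 2.81 and 2.92 on day 0, at 3.55 and 3.55 without tamoxifen and at 1.57 and 1.47 with it. The treated cells had left a high starting level while the untreated cells rose above it, and the difference was -2.03 ± 0.06 (SE; limma's adjusted p 1.11e-12). With the local backgrounds left as scanned it was -0.91, with an adjusted p of 0.169 by limma. None of the extreme backgrounds lay at a spot of this probe or of Z00028998-1. Z00028998-1 read 1.74 and 1.74 on day 0, 2.00 and 2.24 without tamoxifen and 0.05 and 0.16 with it. This fall of 2.02 on the log2 scale had an adjusted p of 5.98e-11, or 0.0542 with backgrounds as scanned, both by limma.

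Z00075588-1 stood at 0.99 and 0.91 on day 0, at 1.66 and 1.91 in untreated cells and at -0.13 and -0.15 in treated cells, and fell by 1.93 on the log2 scale. Z00041077-1 was low against the reference throughout, at -1.70 and -1.81, then -1.40 and -1.37 without tamoxifen and -3.24 and -3.29 with it. Its fall of 1.87 on the log2 scale was mostly on the treated side, where the distance from day 0 was -1.51 against 0.37 in untreated cells. Z00064530-1, whose probe holds an AATAAA hexamer, was at 0.62 and 0.37 on day 0, at -0.06 and 0.31 without tamoxifen and at -1.78 and -1.71 with it. In this probe alone among the 6, the untreated cells too were below day 0, by 0.37 on the log2 scale (adjusted p 0.00962, limma).

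The largest rise, at Z00037943-1, also came from movement of both groups. It read -0.70 and -0.83 on day 0, -1.68 and -1.60 in untreated cells and 0.19 and 0.13 in treated cells. The treated cells were 0.93 above day 0 and the untreated cells -0.88 from it, and the difference was 1.81 ± 0.06 (SE), 3.5-fold, with limma's adjusted p of 6.99e-12. Z00024009-1 behaved likewise, with 0.99 and 0.95 on day 0, 0.38 and 0.31 without tamoxifen and 2.04 and 1.99 with it.

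The other 4 of the 6 largest rises had untreated cells above day 0 and treated cells higher still. Z00035453-1 went from -0.06 and 0.02 to 0.49 and 0.56 without tamoxifen and to 2.22 and 2.17 with it. Z00074633-1 went from -1.32 and -1.50 to -0.64 and -0.63 without and to 0.98 and 0.95 with tamoxifen, the largest distance of treated cells from day 0 among the 12, 2.38 on the log2 scale. Z00074737-1 rose to 2.41 and 2.41 in treated cells, against 1.03 and 0.92 in untreated cells and 0.61 and 0.74 on day 0. Z00023510-1 rose to 1.02 and 0.97, against -0.34 and -0.46 and a start of -0.74 and -0.69. The 12 probes were chosen as the largest called changes with treated and untreated arrays that did not overlap, so their separation follows from the choice.

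**Figure D1:**
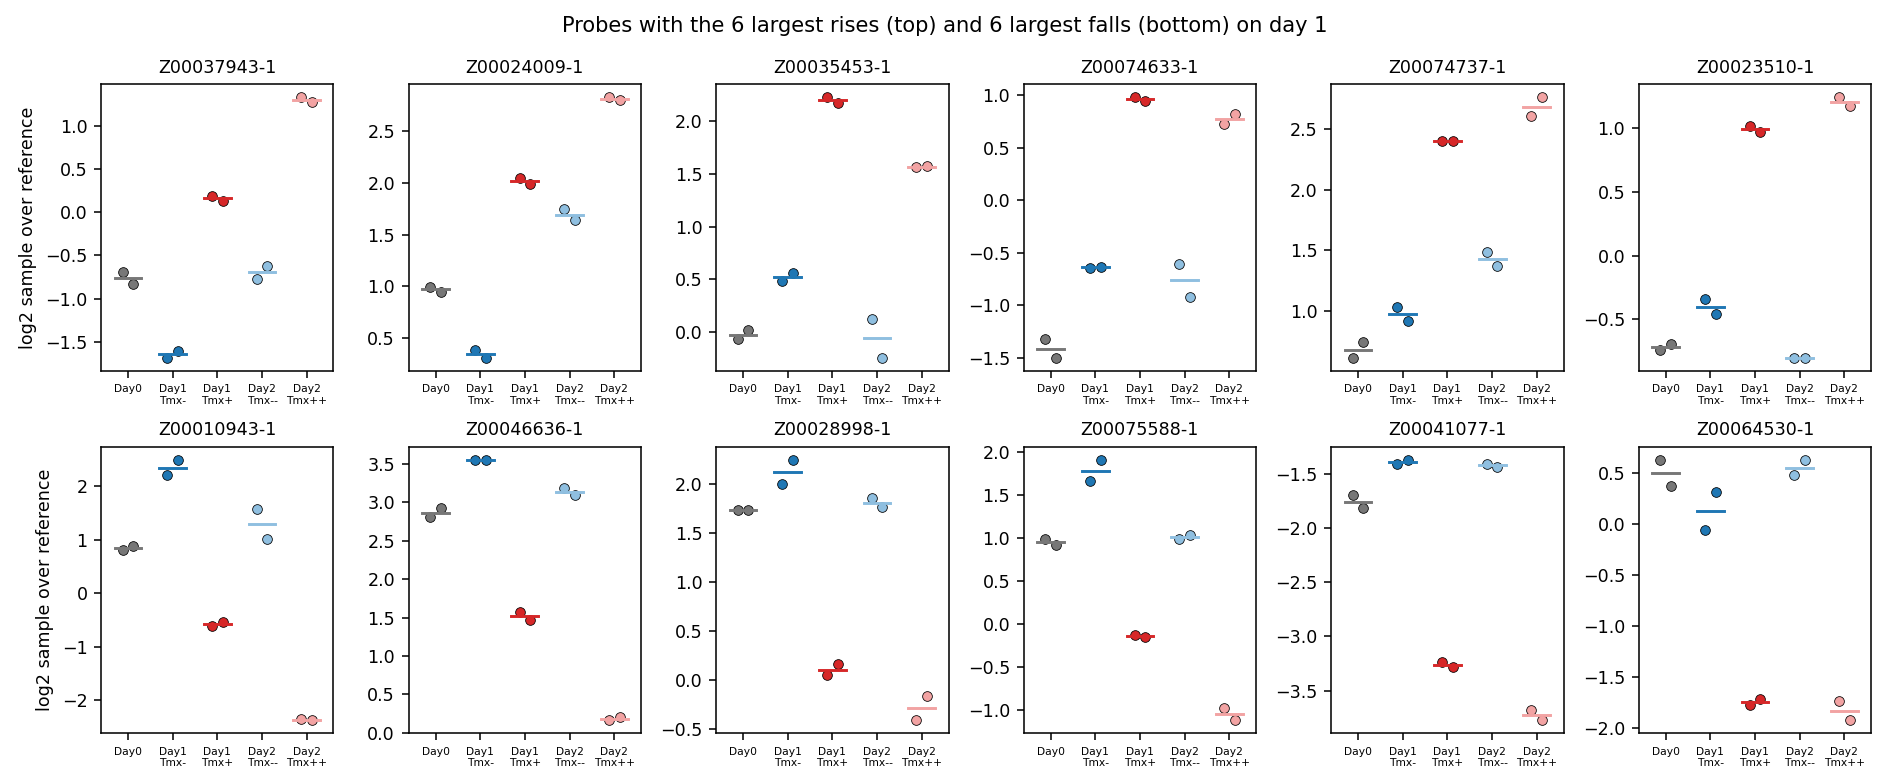
Level of the 6 probes with the largest rise (top row) and the 6 with the largest fall (bottom row), as log2 of sample over reference on the vertical axis, in 5 groups of 2 arrays. Points are arrays and lines are group means. The probes were chosen so that both Day1 Tmx+ arrays lie on the same side of both Day1 Tmx- arrays. In each of the 12 panels the Day2 Tmx++ arrays lie on that side of the Day2 Tmx-- arrays too.

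Placing each change against day 0 asks whether the treated or the untreated cells moved. Both groups had moved a great deal: Day1 Tmx+ differed from Day0 at 13181 probes (44.8%) and Day1 Tmx- from Day0 at 12874 (43.8%). The treated distance spans slides 1 and 2, while the untreated distance lies within slide 1. Slide and treatment thus cannot be told apart in the classes or in the counts of which group lay farther. The sum of both distances, used below to ask which group lay farther from day 0, passed its test at 14042 probes (47.7%). It answers that question only where the groups lay on opposite sides of day 0. The sum also passes where both moved the same way, so this is no count of probes where 1 group lay farther. These contrasts share arrays with the tamoxifen comparison, and the treated distance minus the untreated distance is by construction the tamoxifen difference, so the classes below describe the calls and are no further test of them. Untreated cells on day 2 differed from Day0 at 2954 probes (10%), across slides 1 and 2, fewer than the 12874 of untreated cells on day 1 within slide 1.

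Of the 5508 called probes, 1668 were called against day 0 in the treated cells only (870 lower and 798 higher with tamoxifen). Another 1302 were called against day 0 in the untreated cells only, 566 of them lower and 736 higher in the treated than in the untreated cells. Both groups were called against day 0 in the same direction at 1720 probes and in opposite directions at 319, and neither was at 499. With 1 array left out, the treated-only class held 925 to 2499 probes and the untreated-only class 680 to 2454. A call in 1 group and a miss in the other does not show that the distances differ, so the sum of the distances was tested too where the groups had not moved the same way; where they had, the tamoxifen call itself says which lay farther. The treated cells lay farther from day 0 at 1260 of the lower calls and the untreated cells at 568, with 934 not settled. Among the higher calls these counts were 884, 774 and 1088.

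**Figure D2:**
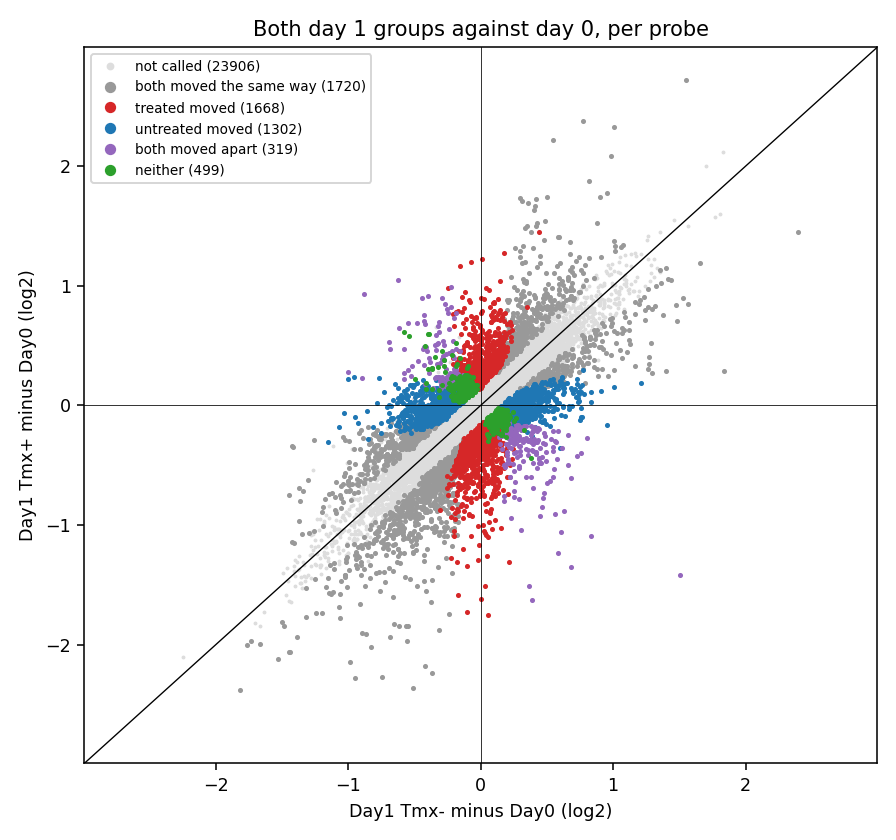
Difference from Day0 of Day1 Tmx+ (vertical axis, log2) against that of Day1 Tmx- (horizontal axis, log2) for the 29414 tested probes, coloured by class. Probes on the diagonal moved equally in both groups; the 1668 probes called in treated cells only spread up and down near the vertical axis and the 1302 called in untreated cells only spread sideways near the horizontal axis.

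Among the strong changes the treated cells, which were on another slide than Day0, more often lay farther from day 0. They did so at 59 of the 81 probes at least 2-fold lower, the untreated cells at 7, and 15 were not settled. Among the 57 at least 2-fold higher these counts were 40, 6 and 11. The median of treated cells minus day 0 was -1.24 for the 81 and 0.98 for the 57. The untreated medians, 0.05 and -0.23, are over probes that went both ways: of the 81, 28 had moved apart with an untreated median of 0.55 and 28 the same way with -0.45. Of these 138 probes, 4 were called against day 0 in the untreated cells alone, compared with 31 in the treated cells alone, 50 in both in opposite directions, 51 in both in the same direction and 2 in neither. The median difference of the same treated arrays from untreated day 2 arrays, both on slide 2, was -1.27 for the 81 and 0.98 for the 57. These treated arrays also served to choose the probes, which favours large medians, and the days differ. Over all probes that comparison within slide 2 called 11694 (39.8%).

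**Figure D3:**
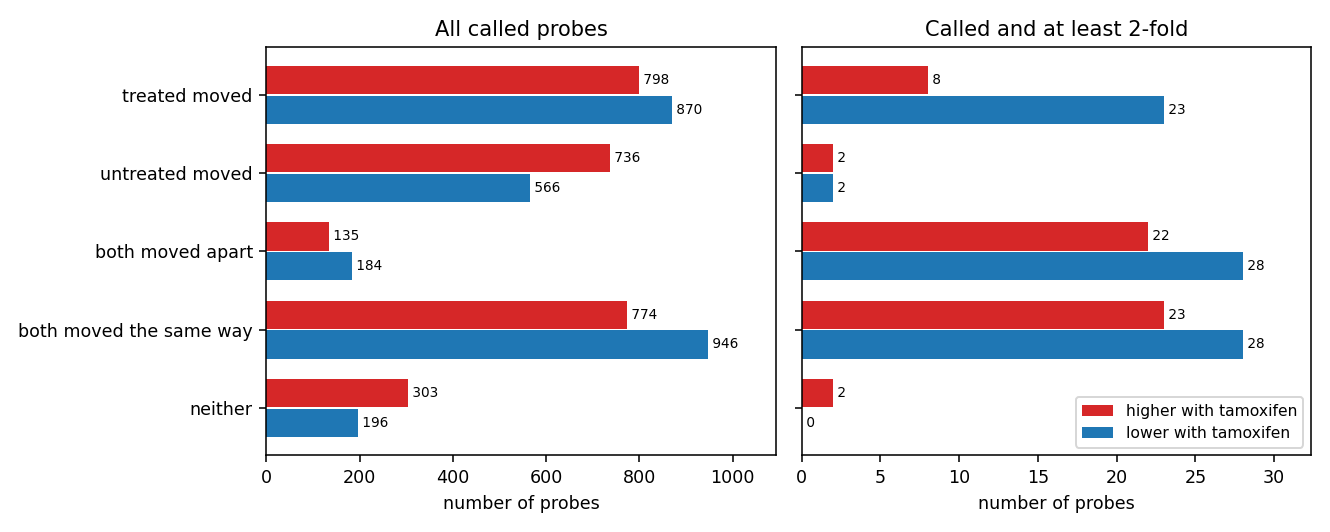
Number of probes called in Day1 Tmx+ against Day1 Tmx-, by which group was also called against Day0, for all 5508 calls (left) and for the 138 that were at least 2-fold (right). Red bars are probes higher and blue bars probes lower with tamoxifen; the class called in untreated cells only holds 1302 of all calls and 4 of the 2-fold calls.

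In named probes of the treated-only class the untreated cells were not called against day 0. Z00046616-1 was at -1.01 and -0.93 on day 0, at -1.02 and -0.81 in untreated cells and at -2.73 and -2.71 in treated cells. Untreated cells minus day 0 was 0.05, while the tamoxifen difference was -1.81 ± 0.08 (SE; limma's adjusted p 1.52e-10). Z00075322-1 and Z00004889-1, probes that overlap in sequence, fell by 1.62 and 1.62 on the log2 scale, the former from 0.16 and 0.41 without to -1.29 and -1.38 with tamoxifen.

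On the rising side of that class, Z00004988-1 was at 1.22 and 1.22 on day 0, 1.08 and 1.05 without tamoxifen and 2.40 and 2.38 with it. Z00074866-1 went from -0.90 and -0.67 on day 0 to 0.41 and 0.43 in treated cells, with untreated cells at -0.85 and -0.86. Z00006430-1 reached 0.09 and 0.31 from -0.78 and -0.78, against -0.91 and -1.15 without tamoxifen. At Z00004988-1 and Z00006430-1 both untreated arrays lay below both Day0 arrays, by -0.16 and -0.25 in the mean. Each of these 3 probes was more than 2-fold higher in treated cells. Their treated and untreated arrays were apart by the rule that chose them.

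In the untreated-only class the treated cells were by definition not called against day 0, while the untreated cells were. Z00060357-1 read 0.80 and 0.82 on day 0 and 1.08 and 0.98 with tamoxifen, but -0.16 and -0.23 without it. Z00024130-1 read 0.95 and 0.97, then 1.15 and 1.24 with and -0.05 and 0.05 without tamoxifen. Z00033292-1 read -2.27 and -2.10, then -1.87 and -2.05 with and -3.16 and -2.75 without. Its difference of 1.00 turned to -0.08 with the local backgrounds left as scanned, though no extreme background lay at its own spot. In the order given, treated cells at these probes were 0.22, 0.24 and 0.23 above day 0, with both treated arrays above both Day0 arrays. The adjusted p values were 0.0749, 0.0757 and 0.0714 (limma), so the missed calls do not show that treated cells had not moved. Z00045886-1, which shares 30 bases with Z00024130-1, differed by 1.28 between treated and untreated cells and was not in this class.

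Of the 3 named falls of that class, the first 2 had treated cells -0.165 and 0.188 from day 0, not called, and untreated cells above it. Z00044933-1 was at 0.05 and -0.08 on day 0, at -0.17 and -0.19 with tamoxifen and at 0.88 and 1.00 without. Z00070603-1 was at 1.01 and 1.11 without tamoxifen against -0.08 and 0.16 with it and -0.21 and -0.09 on day 0, and was well above background on 1 of 2 treated and 1 of 2 day 0 arrays. Z00023611-1 was at 1.25 and 1.33 without tamoxifen, 0.56 and 0.12 with it, and 0.86 and 0.52 on day 0. There the treated cells were -0.35 and the untreated cells 0.60 from day 0, and which lay farther was not settled (sum 0.24, adjusted p 0.447 by limma). All 3 of these probes hold an AATAAA hexamer.

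On day 2 the probes of the untreated-only class had other medians, farther from day 0 in treated cells and nearer to it in untreated cells than on day 1. For the 736 higher calls, the median against day 0 was -0.31 in untreated cells on day 1 and -0.07 on day 2, and -0.01 in treated cells on day 1 and 0.21 on day 2. For the 566 lower calls the medians were 0.32 and 0.07 without and 0.01 and -0.18 with tamoxifen. The day 1 values of this class were used to choose it. The named rises did not follow the untreated median: Z00060357-1 was at 0.02 and 0.09 without and 2.299 and 2.17 with tamoxifen on day 2, so untreated cells were still -0.76 from day 0. At Z00024130-1 that distance was -0.58 and at Z00033292-1 it was -0.37. Untreated medians neared day 0 in other classes too. Where both groups had moved apart they went from -0.261 to 0.001 (higher calls) and from 0.293 to 0.065 (lower calls). Where both had moved the same way they went from 0.174 to -0.001 and from -0.303 to -0.038. Over all tested probes the central 95% of untreated cells minus day 0 ran from -0.687 to 0.588 on day 1. On day 2 it ran from -0.298 to 0.304.

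**Figure D4:**
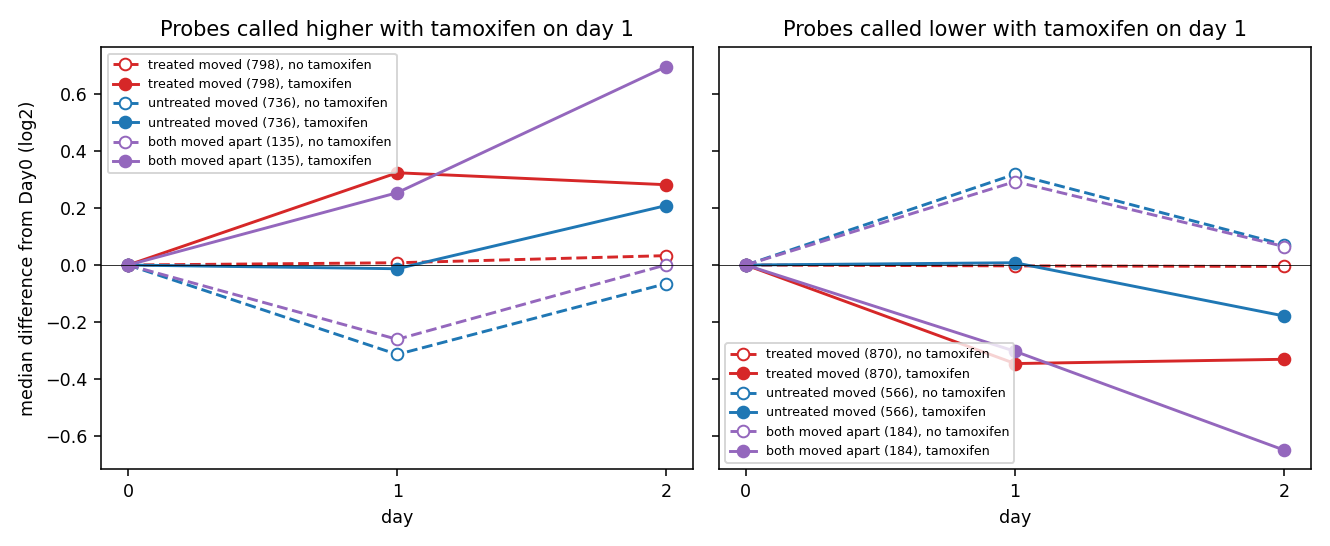
Median difference from Day0 (vertical axis, log2) of probes called higher (left) or lower (right) with tamoxifen on day 1, by class, on days 0, 1 and 2 (horizontal axis). Filled points with solid lines are cells in tamoxifen and open points with dashed lines are untreated cells. In the class called in untreated cells only (blue), the untreated median returned to -0.07 (left) and 0.07 (right) on day 2 while the treated median reached 0.21 and -0.18. In the class that moved apart (purple) the untreated median was 0.001 (left) and 0.065 (right) on day 2.

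The day 2 arrays compare tamoxifen with no tamoxifen in wells that share no array with the day 1 comparison. Slide 2 held the treated cells of day 1 and the untreated cells of day 2. A shift of its values at a probe would enter the day 1 difference with a plus and the day 2 difference with a minus sign. Shifts of slide 1 (untreated day 1) and of slide 3 (treated day 2) would enter 1 difference each. The part of slide in either difference was not tested. On day 2, 4073 probes were higher (13.8%) and 3267 lower (11.1%) with tamoxifen. Of the 2746 higher on day 1, 1722 were also higher on day 2, 62.7% of the day 1 list and 42.3% of the day 2 list. Of the 2762 lower on day 1, 1846 were also lower, 66.8% and 56.5% of the lists. Opposite calls on the days numbered 7 and 12. All 81 probes at least 2-fold lower on day 1 were called lower on day 2, and 55 of the 57 at least 2-fold higher were called higher.

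Day 2 calls in the day 1 direction are given by class as a description, with no test between classes. They covered 92.6% of higher and 97.3% of lower calls where both groups had moved apart, 61.2% and 71.5% where the treated cells alone were called, 63% and 61% where the untreated cells alone were, and 69.6% and 68.3% where both had moved the same way. The shares were 35% and 27.6% where neither group was called against day 0, the class with the smallest median differences. The median difference of the 81 probes was -1.18 on day 1 and -1.59 on day 2, and that of the 57 was 1.18 and 1.26. The change from day 1 to day 2 in the tamoxifen difference passed its own test at 697 of all probes (2.37%).

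**Figure D5:**
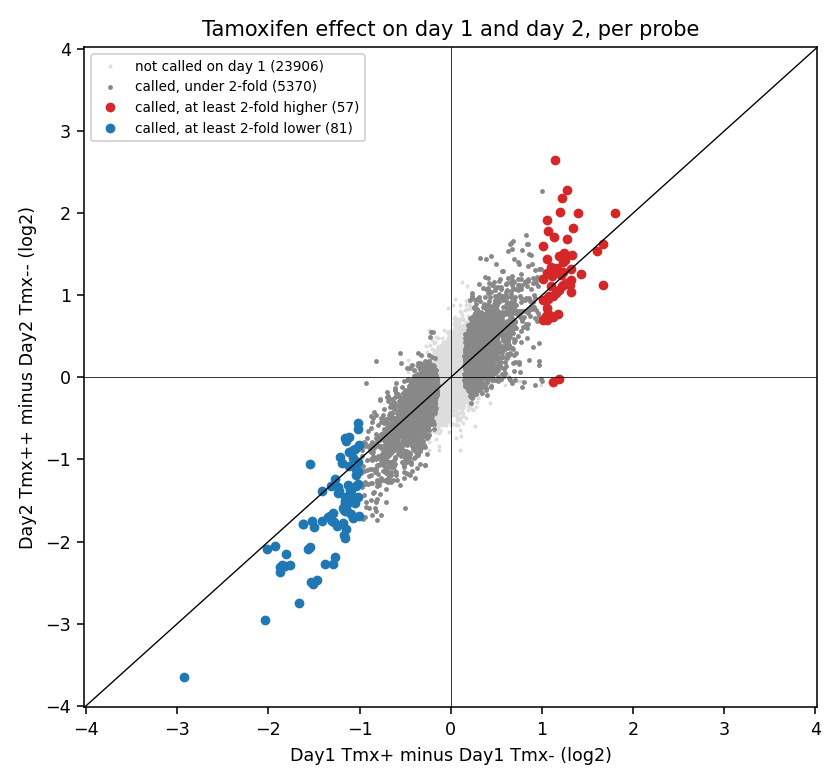
Day2 Tmx++ minus Day2 Tmx-- (vertical axis, log2) against Day1 Tmx+ minus Day1 Tmx- (horizontal axis, log2) for the 29414 tested probes, with the line of equal values. Red and blue points are the 57 and 81 probes at least 2-fold higher or lower on day 1; all 81 blue points were below 0 on day 2, and 2 red points lay at -0.02 and -0.06.

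The 2 rises past 2-fold that were not called on day 2, Z00063945-1 and Z00066250-1, rested on 1 untreated array. Z00063945-1 read -1.13 and -3.04 on the Day1 Tmx- arrays and -0.89 and -0.89 on the Day1 Tmx+ arrays. Z00066250-1 read -1.14 and -2.99 against -0.95 and -0.94. Z00066811-1, next in size in the class called in neither group, read -1.19 and -2.71 against -0.97 and -0.93. Without the second Day1 Tmx- array the differences were 0.24, 0.19 and 0.23, with limma's adjusted p of 0.686, 0.745 and 0.644.

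These 3 probes are shown because they share a high content of G and C, between 73.3% and 75% against a median of 45% over tested probes.
Z00063945-1: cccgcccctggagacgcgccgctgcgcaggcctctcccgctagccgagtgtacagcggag
Z00066250-1: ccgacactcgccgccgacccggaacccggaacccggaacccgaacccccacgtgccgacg
Z00066811-1: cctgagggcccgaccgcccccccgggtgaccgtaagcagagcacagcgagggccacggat
On that second array 25 probes read at least 2-fold below the first Day1 Tmx- array, and 1 read that far above it. Of the 25, 12 were called higher with tamoxifen and 0 lower, against 9.34% and 9.39% over all tested probes, and their median GC content was 55%. Choosing probes for a low untreated array itself favours higher calls. In the other groups of days 0 to 2 the second array was at least 2-fold below the first at 1 to 6 probes. Most GC-rich probes did not share the gap of the 3 shown. At the 250 tested probes with at least 70% GC, the second Day1 Tmx- array minus the first had a median of -0.031. Of those probes 7.6% were called higher.

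The 3 falls of the class called in neither group also had untreated arrays far apart. Z00037261-1 was at -3.17 and -3.92 without and -4.32 and -4.40 with tamoxifen. Z00051259-1 was at 0.11 and 0.62 against -0.08 and -0.25, and Z00047739-1 at -1.27 and -0.69 against -1.40 and -1.48. Without the second Day1 Tmx- array the differences at the latter probes were -0.28 and -0.17, with adjusted p of 0.241 and 0.184 by limma. Without the second Day1 Tmx+ array they were -0.45 and -0.42, with adjusted p of 0.122 and 0.0859 by limma.

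Probes that share sequence gave a check within the arrays, since their shared stretch was read at separate spots; some pairs match over part of their length only and then diverge. Among tested probes, 763 pairs shared a run of at least 20 bases with each other and with no further probe. In 142 of these pairs both probes were called, in each case in the same direction, in 72 only 1 was called and in 549 neither. Over all tested probes 18.7% were called. In the 763 pairs, most with neither probe called, the median gap between partners was 0.04 and the 95th percentile 0.19 on the log2 scale. Partners share RNA and arrays, which favours calls in the same direction, and are not replicates of the treatment.

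In 7 such pairs at least 1 probe was called past 2-fold, and both partners were then called in the same direction. Probes of 4 pairs that overlap by 27 to 45 bases are shown here because the same stretch was read at separate spots. Shared bases are in capitals.
Z00074574-1: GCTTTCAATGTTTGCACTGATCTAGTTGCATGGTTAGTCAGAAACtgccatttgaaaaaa
Z00002490-1: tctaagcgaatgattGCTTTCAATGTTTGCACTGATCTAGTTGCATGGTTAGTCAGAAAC
Z00020448-1: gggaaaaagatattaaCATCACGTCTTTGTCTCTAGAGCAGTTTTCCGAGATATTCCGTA
Z00074626-1: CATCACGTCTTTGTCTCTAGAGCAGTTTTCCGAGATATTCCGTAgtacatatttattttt
Z00022680-1: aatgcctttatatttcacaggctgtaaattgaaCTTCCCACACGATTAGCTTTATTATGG
Z00075322-1: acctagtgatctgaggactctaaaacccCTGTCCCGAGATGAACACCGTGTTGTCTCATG
The partner of Z00022680-1 is Z00074737-1, printed among the largest rises, and that of Z00075322-1 is Z00004889-1, which is not printed. Z00074574-1 and Z00002490-1 differed by -1.51 and -1.47 between treated and untreated cells, and by -2.52 and -2.46 on day 2. Z00020448-1 and Z00074626-1 differed by -1.05 and -1.003. Z00022680-1 and Z00074737-1, at 1.103 and 1.43, had the widest gap of the 7 pairs, 0.33. The pair with the narrowest gap, 0.002, was Z00075322-1 and Z00004889-1.

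Lower calls held the hexamer AATAAA, the usual polyadenylation signal near the 3′ end of messenger RNA, more often than other probes did. It was present in 360 of the 2762 lower calls (13%) and 16 of the 81 past 2-fold (19.8%), compared with 2207 of 29414 tested probes (7.5%) and 163 of the 2746 higher calls (5.94%). On the opposite strand it was present in 2.93% of lower calls and 3.06% of tested probes. The instability motif ATTTA differed little, at 7.71% of lower calls and 6.93% of tested probes. Read the other way, 16.3% of probes with AATAAA and 8.83% of those without it were called lower.

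The second Day1 Tmx- array moved with this. Probes with AATAAA read a median of 0.12 higher on it than on the first, while probes without it read 0.01 higher. Without the second array 7.52% of probes with AATAAA and 5.56% of those without it were called lower; without the first these shares were 28.8% and 13.2%. Without the second array the shares called higher were 7.07% with and 5.63% without AATAAA, so probes with it were called more often both ways. On day 2 the same held, with 13.7% against 10.9% lower and 16.5% against 13.6% higher. The GC content of AATAAA probes was lower (median 38.3% against 45%), and within 40% to 50% GC the shares called lower were 17.8% and 9.52%. The part of that array in the excess was not tested further.

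A small number of probes could be placed by matching at least 30 bases to windows around gene starts (RefSeq, GRCm38.p6, 32851 windows). The windows ran from 250 bases before to 50 bases after each start. Only these windows were searched, so other places in the genome were not checked. Matches on a single chromosome were left out of the counts. Of 361 tested probes that matched, 39 were called (10.8%), 28 higher and 11 lower, while over all tested probes 18.7% were called, 9.34% higher and 9.39% lower. The placed probes were thus called less often than all tested probes; the difference was not tested. The placed changes of at least 0.5 on the log2 scale, 5 falls and 4 rises, are described here; this limit was chosen after their values were seen. A place in a gene's bounds does not say whether the probe lies in an exon or an intron, and the transcript it reads was not identified.

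Z00038074-1 matched chr9:50505002-50505055 over 54 bases, within the bounds and on the strand of Plet1, a surface protein gene known from trophoblast progenitors, and upstream of the antisense gene Plet1os. Its level was 3.04 and 2.93 on day 0, 2.94 and 3.12 without tamoxifen and 2.16 and 2.17 with it. The difference of -0.87 ± 0.07 (SE, limma's adjusted p 2.39e-07) came mostly from the treated cells, and was -1.68 on day 2. Treated cells were -0.82 and untreated cells 0.05 from day 0. Z00070005-1 matched chr19:5970271-5970330, within and on the strand of Slc22a20, an organic anion transporter gene. It read 1.20 and 1.24 on day 0, 1.15 and 1.16 without and 0.36 and 0.24 with tamoxifen. Both are shown because, of these 5 placed falls, they were the treated-only ones, with the matched bases in capitals.
Z00038074-1: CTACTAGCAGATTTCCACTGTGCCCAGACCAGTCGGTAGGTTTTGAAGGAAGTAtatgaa
Z00070005-1: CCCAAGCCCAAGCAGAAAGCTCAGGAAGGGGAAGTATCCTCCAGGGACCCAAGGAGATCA

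In the other 3 placed falls the untreated cells had risen from day 0, and all 3 probes hold an AATAAA hexamer. The second Day1 Tmx- array, where AATAAA probes read higher, was above the first at Z00056482-1 and Z00072951-1 and below it at Z00070705-1. The part of that array in these falls was not tested. Z00070705-1 matched chr14:52019729-52019788, 16 to 75 bases before a start of the zinc finger gene Zfp219 and on its opposite strand. It was at 0.64 and 0.66 on day 0, 1.43 and 1.37 without and 0.50 and 0.57 with tamoxifen. Z00056482-1 matched chr9:108578848-108578907, before the start of the WD repeat gene Wdr6 and on its strand, and was at 1.45 and 1.81 without tamoxifen against 1.13 and 1.02 with it and 0.97 and 0.83 on day 0. Z00072951-1 matched chr5:137612512-137612571, within the bounds of the F-box gene Fbxo24 and on the strand opposite to Gm36266. It read 0.79 and 0.96 without tamoxifen against 0.01 and -0.02 with it and 0.39 and 0.38 on day 0, so here the treated cells were also below the start.

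The 4 placed rises all had a second Day1 Tmx- array below the first. Z00063945-1, described above, matched chr10:77978615-77978674 across the start of Cfap410, a cilia and flagella associated gene, on its strand. Z00055649-1 matched chr15:99590881-99590940, before the start of the water channel gene Aqp5 and on its strand, and read -0.88 and -2.40 without against -0.82 and -0.61 with tamoxifen. Z00032074-1 matched chr17:28328570-28328614 over 45 bases, just after the start of the ribosomal protein gene Rpl10a, and read 0.14 and -1.11 against 0.24 and 0.39. Z00032024-1 matched chr13:21754130-21754162 over 33 bases, within and on the strand of the histone gene H2bc15, and read -1.58 and -2.24 against -1.44 and -1.37. In each of these 4 probes the first untreated array lay near the treated arrays, and the day 2 differences were -0.02, -0.09, -0.05 and 0.11.

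The first Day1 Tmx- array carried 6 neighbouring spots with local backgrounds over 10 times the array median in both channels, 12 values in all, in rows 357 to 362. In the green channel these backgrounds ran from 2239 to 65209, while at the same spots of the second array they were 44 to 47.5. Of their 6 probes, 5 were tested. Z00023023-1 read -0.96 and -1.13 without and -0.78 and -0.78 with tamoxifen, a difference of 0.26 (adjusted p 0.0104, limma). Over 16 other settings the difference ran from 0.178 to 1.081, the latter with backgrounds as scanned, and the call was lost in 5 of them, among them the fit without the second Day1 Tmx- array (adjusted p 0.15, limma) and those without either Day1 Tmx+ array (0.0523 and 0.0664). At Z00057174-1, Z00034202-1, Z00074217-1 and Z00017162-1 the spot was marked as non-uniform and its value left missing, so untreated cells had 1 array. Of these 4, Z00074217-1 alone was called, at -0.80 on the second untreated array against -1.04 and -1.09 with tamoxifen. With a single untreated array, that call assumes the spread of the other groups. The remaining probe, Z00077734-1, was too dim to be tested.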

How the data were processed

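Per the file headers, the deposited scanner output came from Agilent Feature Extraction, version 9.5.1.1, and gives a linear intensity and flags for each spot. The deposited series matrix holds the authors' values on a log10 scale, with medians of 2.305 to 2.336 per array. Set against log10 of Agilent's processed green signal they gave correlations of 0.9935 to 0.9973, and their normalization and centring are not given in the sources used here.

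Mean signals were corrected with normexp (offset 50) and loess within arrays in limma 3.58.1 (R 4.3.3). Local backgrounds over 10 times the array median were replaced by that median. Spots marked non-uniform were missing (91 values among tested probes), and spots of a probe were averaged. A single group-means model was fitted to all 20 arrays (residual df 10, prior df 6.94). The added offset makes folds of dim probes too small, and 2 arrays per group limit the precision. Each group lay on 1 slide, so no slide term could be fitted.

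Named probes were the 6 largest rises and falls with groups not overlapping, the 3 largest each way per class, and those under extreme backgrounds. Replicate numbers did not pair arrays: deviations of same-numbered Day1 Tmx- and Day1 Tmx+ arrays correlated at -0.288, and those of Day0 and Day1 Tmx- at 0. The comparison, probes and lists were chosen with earlier results of these data known. The fit was tested on simulated data. Gene lists could not be applied without gene names.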

Additional observations from a re-analysis of the deposited data

Results flagged for a closer look

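At 10 named probes the tamoxifen difference on day 2 differed from that on day 1 by limma's test of the difference itself (adjusted over all tested probes, 697 of which passed, 2.37%). The value given is the day 2 difference minus the day 1 difference on the log2 scale. No array is shared by the days, but slide 2 enters both.

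Among large changes, Z00046636-1 fell further on day 2 (-2.95 against -2.03, a change of -0.92), as did Z00041077-1 (-2.31 against -1.87, a change of -0.43). Z00023510-1 rose further, from 1.39 to 2.01 (change 0.61), and Z00024009-1 rose less, from 1.67 to 1.12 (change -0.55).

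The 3 named rises of the class called in untreated cells only were all larger on day 2. Z00033292-1 went from 1.00 to 2.27 (change 1.27, adjusted p 7.7e-05 by limma), Z00060357-1 from 1.22 to 2.18 (change 0.96) and Z00024130-1 from 1.20 to 2.02 (change 0.82). Of the named falls of that class, Z00044933-1 was smaller on day 2, -0.72 against -1.12 (change 0.40).

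Z00037261-1, a probe low against the reference and called in neither group against day 0, went from -0.82 to 0.20 (change 1.01). Z00034202-1, which lay under an extreme local background and had 1 untreated array on day 1, went from 0.17 to -0.49 (change -0.66).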

How the results depend on the processing

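The count of 5508 probes called between treated and untreated cells on day 1 lay within 1.5 times under other background corrections, normalizations, signals and filters (4093 to 5904), but not always with the same probes: with backgrounds as scanned, 3110 of the 5508 kept their call and 4790 their direction. It was 2735 when only day 0 and day 1 arrays were fitted, 1800 with only the 4 arrays compared and 138 at 2-fold. Leaving out 1 array gave 2986 (without Day1 Tmx+ replicate 2), 3367 and 8507 (without Day1 Tmx- replicates 2 and 1) and 3685 (without Day1 Tmx+ replicate 1); the lone array is then assumed to vary like other groups. With the replicate number as a block it was 5547, and in the 4 arrays alone 1796, or 5173 with the numbers crossed, a pairing chosen after seeing the data. At 2-fold, the other comparisons gave 509 (treated minus day 0), 319 (untreated minus day 0), 2754 (sum of distances) and 400 (treated minus untreated day 2). Untreated minus day 0 gave 8040 in its 4 arrays, and treated minus untreated day 2 gave 7610 with backgrounds as scanned. The treated-only class of 1668 was 952 with day 0 and day 1 arrays and 31 at 2-fold, and 925 to 2499 with 1 array left out. The untreated-only class of 1302 was 638, 4 and 680 to 2454 in the same order. Among values of named probes under the alternatives, 539 kept call and direction, 53 lost the call, and Z00033292-1 reversed to -0.084 with backgrounds as scanned. Alternatives for gene lists were not run, as the files give no gene names. The number of arrays, 2 per group, and dim probes limit the precision.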
